A study of Mus musculus with 4 samples.

Results

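Tissue kallikreins are secreted serine proteases, and those of the outer epidermis cut the adhesion proteins that hold dying keratinocytes together, so that the skin can shed. They are made as inactive precursors and activate one another in a cascade that is restrained by LEKTI, the inhibitor encoded by Spink5. The kallikrein genes of the skin were examined here, namely Klk5, Klk6, Klk7, Klk8, Klk10 and Klk11, together with Spink5. Members were taken as every probe whose platform gene symbol was one of these 7 names. They matched 7 of the 25697 probes, which stand for 6 of the 16593 genes measured. Klk11 had 2 probes and each other kallikrein 1. Spink5 matched no probe by symbol and was not analysed here.

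The probes were read on 4 Illumina bead arrays, 1 for each of 4 cultures of primary keratinocytes from newborn mice. All 4 samples were of the 129 background and carried the Pou5f1::GFP transgene, a fluorescent reporter of Pou5f1. Each had received, by transduction, transcription factors for reprogramming, which the labels do not name. Cells were grown in SFM medium at 30 degrees Celsius and 10% CO2. Samples without DAPT, called untreated below, were taken on day 4 and on day 7, and samples with 2.5 uM DAPT were taken on the same days. DAPT blocks gamma-secretase, a protease needed for Notch receptors to signal. Groups follow the sample titles, since the treatment field names DAPT for every sample. The study asked how DAPT changes gene expression in these cells. A culture without the factors is not part of the comparisons, so whether the DAPT differences below depend on the transduced state was not tested.

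Each group is 1 array. A difference between 2 arrays therefore has no replicate check and is printed without a p-value. Mean deposited intensity lay between 323 and 472 per array, and between 12281 and 14145 probes per array had a detection p under 0.01. To gauge measurement error, but not the variation between cultures, pairs of probes for one gene were compared, and their SD was 0.47 for the log2 difference with DAPT on day 4, 0.32 on day 7, 0.56 for day 7 against day 4 without DAPT and 0.26 with DAPT. Keratinocyte markers were present: 8 of 9 on the array were detected on all 4 arrays, and Krt1, a keratin of the suprabasal layers, on none.

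Of the 7 member probes, 6 were detected on all 4 arrays, and so were 5 of the 6 genes. Their detection p was 0 everywhere except for the dimmer Klk11 probe, at 0.00253 without DAPT on day 7. The Klk5 probe was not well above background on any array. Klk5 encodes a trypsin-like protease that starts the cascade by activating other kallikreins. Its deposited intensities were -3.08, -3.79, -4.11 and 4.72 in untreated cells on day 4, DAPT cells on day 4, untreated cells on day 7 and DAPT cells on day 7. The lowest detection p among them was 0.173. No difference is given for Klk5.

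The member genes lie side by side on mouse chromosome 7, in the order Klk11, Klk10, Klk9, Klk8, Klk7, Klk6, Klk5. Only Klk9 of these 7 neighbouring genes is not a member, and its probe was not detected on any array. The sequences just before the start of Klk7 and Klk10 are shown because these 2 genes of one cluster took opposite courses between day 4 and day 7 without DAPT. They are the 250 bases upstream of the RefSeq start in GRCm38.p6, at chr7:43811044-43811293 and chr7:43780804-43781053, both on the plus strand, written 5′ to 3′. Capitals mark matches on either strand to CCACCC, a core bound by Kruppel-like factors.
Klk7: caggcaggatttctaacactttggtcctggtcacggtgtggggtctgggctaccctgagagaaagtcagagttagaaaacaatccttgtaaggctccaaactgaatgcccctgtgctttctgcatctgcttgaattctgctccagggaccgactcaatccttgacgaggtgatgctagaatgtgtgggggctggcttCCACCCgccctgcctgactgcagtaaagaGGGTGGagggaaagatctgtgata
Klk10: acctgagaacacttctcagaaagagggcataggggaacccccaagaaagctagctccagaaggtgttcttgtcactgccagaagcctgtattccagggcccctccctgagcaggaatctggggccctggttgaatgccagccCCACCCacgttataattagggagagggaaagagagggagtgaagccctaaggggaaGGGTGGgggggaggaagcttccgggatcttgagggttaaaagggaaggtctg
These and other short motifs, 4 in all, were searched on both strands in the 8 upstream windows that RefSeq lists for the 6 genes, and the share of all 32851 windows of this length that hold each motif is given beside it. CCACCC was in 4 windows (28.1% of all windows), 2 times each before Klk7, Klk10 and 1 start of Klk11, and 1 time before Klk5. TGGGAA, a core bound by RBPJ, the DNA-binding partner of Notch, was in 3 windows, those of Klk11 and 1 of Klk6 (21.6% of all windows). TGANTCA, the AP-1 site, was in 0 of the 8 windows (6.75% of all windows), and TATAAA, the TATA box, also in 0 (12.4% of all windows). No match overlapped a match to another motif. These are matches of letters, and binding was not measured.

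**Figure D1:**
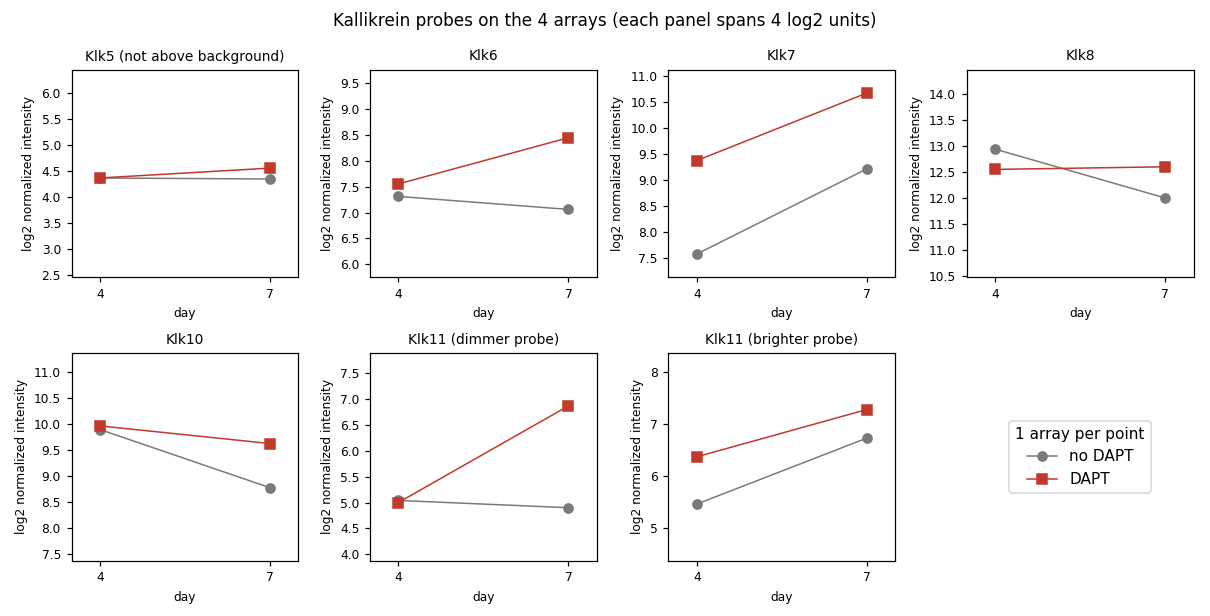
Log2 normalized intensity of the 7 kallikrein probes (vertical axes, each spanning 4 log2 units) on day 4 and day 7 (horizontal axes), with grey circles for no DAPT and red squares for DAPT; every point is 1 array. Klk7 stood higher with DAPT on both days, from 7.58 to 9.38 on day 4 and from 9.22 to 10.68 on day 7, while Klk8 crossed.

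Klk7 encodes a chymotrypsin-like protease that cleaves corneodesmosin, an adhesion protein of the cornified layer. Its deposited intensity on day 4 was 252 in untreated and 569 in DAPT cells, and on day 7 it was 438 and 1727. After normalization, the log2 intensities were 7.58, 9.38, 9.22 and 10.68 in the same order. The array of untreated cells on day 4 was the lowest and the array of DAPT on day 7 the highest. In these bulk samples, fewer cells of a type and less RNA per cell cannot be told apart. The difference with DAPT was 1.81 on day 4, or 3.5-fold, and 1.46 on day 7, or 2.75-fold. Only 19 of 9913 genes tested on day 4 and 35 of 9705 on day 7 had a higher difference. Day 7 stood above day 4 by 1.64 without DAPT and by 1.30 with DAPT. Every one of these differences kept its direction under all 8 alternatives. Those that change only the detection filter or average probes could not move them, since Klk7 has 1 probe, detected on all 4 arrays. Over the 4 arrays Klk7 spanned 8.59-fold, the widest range among the member probes.

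Klk7 was the one member called in the additive model, which fits DAPT and day to all 4 arrays together. It rose with DAPT by 1.63 on the log2 scale (SE 0.38, limma, adjusted p = 0.0244 over 10359 genes), with the DAPT array higher on both days. It also rose with day by 1.47 (SE 0.38, limma, adjusted p = 0.0113), with day 7 higher both without and with DAPT. In this model 0.116% of all genes were called for DAPT, 0.106% as risen and 0.00965% as fallen. For day 1.83% were called, 1.16% as risen and 0.676% as fallen. Both calls depend on the setting. The DAPT call was kept in 1 of 13 alternatives, with adjusted p from 0.244 to 1 in the 12 that lost it. The day call was kept in 3 of 13, with adjusted p from 0.0701 to 0.822 in the 10 that lost it. The effects were above 0 in all 13, between 0.81 and 2.45 for DAPT and between 0.57 and 2.37 for day. Alternatives that change only the detection filter, the handling of probes or the other factor could not move them from 1.63 and 1.47. Leaving out the untreated day 4 array and the day term lowered the DAPT effect to 0.81, and leaving out the untreated day 7 array raised it to 2.45, while without the DAPT day 7 array it was 0.98. The day effect fell to 0.57 without the untreated day 4 array and to 0.74 without the DAPT day 7 array, and rose to 2.37 without the DAPT day 4 array, each with the DAPT term left out. The model has 1 residual degree of freedom per gene, and it gave every gene the same SD of 0.384. This SD holds any real dependence of the DAPT effect on day as well as noise, and it is not a spread between replicates.

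Klk6 encodes a trypsin-like protease also known as neurosin. Its deposited intensity on day 4 was 208 in untreated and 141 in DAPT cells, and on day 7 it was 78.2 and 349. The log2 normalized intensities were 7.31, 7.55, 7.06 and 8.44, so that 3 arrays lay close together and DAPT on day 7 stood above them. The difference with DAPT was 0.24 on day 4, within the SD between probes, and 1.38 on day 7, or 2.61-fold. On day 7 only 47 of 9705 genes had a higher difference. With each array scaled to a common median the day 4 value was -0.12, so day 4 gives no direction. Between the days Klk6 stood at -0.25 without DAPT and at 0.90 with DAPT. The additive DAPT effect was 0.81 (SE 0.38, limma, adjusted p = 1, unadjusted p = 0.0347).

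Klk8 encodes neuropsin, a trypsin-like protease of the epidermis and the brain. Its deposited intensity on day 4 was 8673 in untreated and 5641 in DAPT cells, and on day 7 it was 3449.9 and 6542. The log2 normalized intensities were 12.94, 12.55, 12 and 12.60. Untreated cells thus gave both the highest value, on day 4, and the lowest, on day 7, and the 2 DAPT arrays lay between them. The difference with DAPT was -0.39 on day 4, within the SD between probes, and 0.61 on day 7, or 1.52-fold. Day 7 stood at -0.94 against day 4 without DAPT and at 0.05 with DAPT. The additive DAPT effect was 0.11 (SE 0.38, limma, adjusted p = 1), the smallest among the 5 detected members.

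Klk10 encodes a kallikrein first known as NES1, a gene of normal epithelial cells. Its deposited intensity on day 4 was 1210.4 in untreated and 865 in DAPT cells, and on day 7 it was 310.4 and 827. The log2 normalized intensities were 9.90, 9.97, 8.78 and 9.63. The untreated day 4 array and both DAPT arrays lay close together, and the untreated day 7 array was the lowest. The difference with DAPT was 0.06 on day 4 and 0.84, or 1.8-fold, on day 7, and with common median scaling the day 4 value was -0.09. Day 7 against day 4 stood at -1.12 without DAPT, or 2.18-fold lower, and at -0.34 with DAPT. The additive effects were 0.45 for DAPT (limma, adjusted p = 1) and -0.73 for day (limma, adjusted p = 0.566).

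Klk11 encodes a trypsin-like protease, and its 2 probes disagreed. The deposited intensity of the brighter one on day 4 was 41.7 in untreated and 52.2 in DAPT cells, and on day 7 it was 59.3 and 146. The dimmer one read 23.2, 13.3, 10 and 106 in the same order. After normalization the dimmer probe read 32.8, 32, 30 and 116, while the undetected Klk5 probe read between 20.3 and 23.5. Except with DAPT on day 7 the dimmer probe was thus near background, which limits its differences among those arrays. Both Klk11 probes were highest with DAPT on day 7. Their log2 differences with DAPT were 0.91 and -0.03 on day 4, and 0.55 and 1.95 on day 7, brighter probe first. Day 7 against day 4 stood at 1.27 and -0.13 without DAPT and at 0.91 and 1.86 with DAPT. On day 7 the dimmer probe had only 6 of 9705 genes above it. Both probes were thus higher with DAPT on day 7 and with day in DAPT, and here they gave no common direction for DAPT on day 4 or for day without DAPT. In the authors' deposited table of normalized values both were higher in those comparisons, 2.32-fold and 1.21-fold with DAPT on day 4 and 3.19-fold and 1.24-fold for day without DAPT, brighter probe first. The brighter probe, which stands for the gene, had an additive DAPT effect of 0.73 (SE 0.38, limma, adjusted p = 1) and a day effect of 1.09 (limma, adjusted p = 0.138). Whether the probes read different transcripts was not tested.

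**Figure D2:**
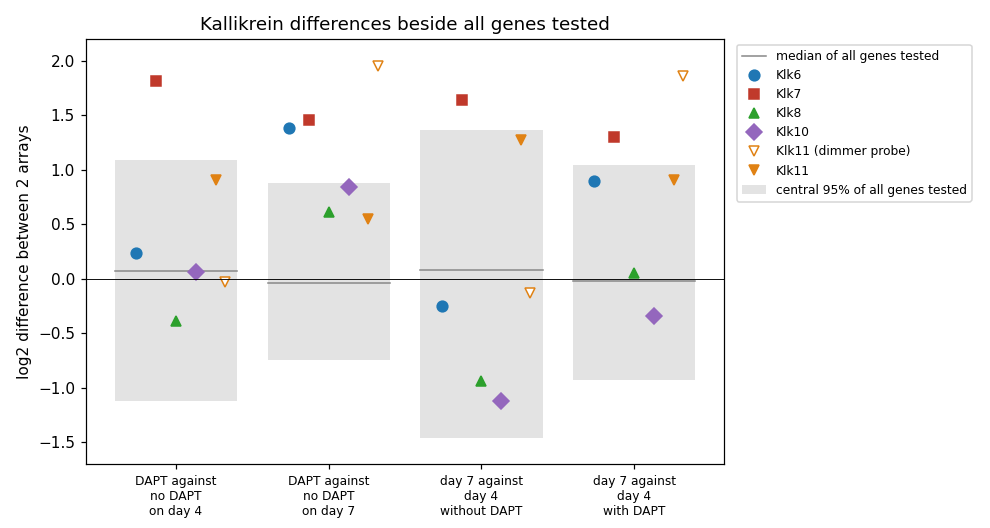
Log2 difference between 2 arrays (vertical axis) for each detected kallikrein probe in the 4 comparisons (horizontal axis), with grey bars for the central 95% of all genes tested and a grey line for their median. Klk7 lies above the bar in all 4 comparisons, at 1.81, 1.46, 1.64 and 1.30, and with DAPT on day 7 all 6 detected probes lie above 0.

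On day 4 DAPT left 1 of the 5 detected kallikreins, Klk7, at least 2-fold higher and 0 lower. Of all 9913 genes tested, 7.23% were at least 2-fold apart, 3.68% higher and 3.55% lower. The members' median was 0.24, beside 0.07 over all genes tested, and their range was -0.39 to 1.81. On day 7, 2 of the 5, Klk6 and Klk7, were at least 2-fold higher and 0 lower, where 2.02% of 9705 genes were that far apart, 1.60% higher and 0.422% lower. The dimmer Klk11 probe, which does not stand for the gene, was at 1.95. The median of the 5 was 0.84, beside -0.04 over all genes, and the lowest member stood at 0.55. All 5 were above 0 on day 7, as were 44.1% of all genes tested. The array with DAPT was the brighter one of the day 7 pair and the dimmer one of the day 4 pair before normalization, with mean deposited intensities of 416 against 323 and 365 against 472; their part in these differences was not tested. Scaling each array to a common median moved the median of all genes from 0.08 to -0.10 on day 4 and from -0.05 to 0.17 on day 7. These medians, unlike those above, take an undetected array at its measured value in place of a bound. All 5 members stayed above that shifted median on day 7, with the lowest at 0.70, and on day 4 the values were 1.52 for Klk7, 0.64 for Klk11, -0.09 for Klk10, -0.12 for Klk6 and -0.23 for Klk8. The members' median on day 4 then turned from 0.24 to -0.09, next to the shifted median of all genes. That scaling also changed the split of genes at least 2-fold higher and lower, from 365 and 352 to 163 and 672 on day 4 and from 155 and 41 to 348 and 13 on day 7. The deposited table of the authors' normalized values gave 230 and 268 on day 7.

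The DAPT difference on day 7 minus that on day 4 was 1.15 for Klk6, 0.99 for Klk8, 0.78 for Klk10 and -0.35 for Klk7. Over the 8256 genes detected on all arrays this quantity had a median of -0.18 and an SD of 0.76. Klk6, the member with the highest value for its representative probe, stood above 93.6% of these genes and below 1.68, the upper end of their central 95%. The 2 Klk11 probes stood at -0.36 and 1.99. With 1 array per group this dependence on day was not tested.

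Between the days, Klk7 and the brighter Klk11 probe were at least 2-fold higher on day 7 without DAPT and Klk10 was at least 2-fold lower. Of 9879 genes 13.8% were that far apart, 7.30% higher and 6.49% lower. The dimmer Klk11 probe stood at -0.13, and the mean over both Klk11 probes at 0.57. The median of the 5 was -0.25, beside 0.08 over all genes. With DAPT, Klk7 alone was at least 2-fold higher and 0 were lower, where 4.81% of 9860 genes were that far apart, 2.92% higher and 1.89% lower. The dimmer Klk11 probe, which does not stand for the gene, was at 1.86. The median of the 5 was 0.90, beside -0.02 over all genes. The comparisons share arrays in pairs: each day comparison uses one array of each DAPT comparison. Common median scaling moved the median of all genes, again without bounds, from 0.09 to -0.14 without DAPT and from -0.03 to 0.11 with DAPT, and changed the split of 2-fold higher and lower genes from 721 and 641 to 297 and 1210, and from 288 and 186 to 416 and 117. The members' median without DAPT went from -0.25 to -0.76. Klk11 then stood at 0.87 without DAPT, and Klk6, Klk7 and Klk11 at 1.09, 1.45 and 1.13 with DAPT.

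The rest of the kallikrein family was near or below background. Of the 17 other tissue kallikreins on the array, 16 were detected on no array, among them Klk4, Klk9, Klk14, Klk15 and the mouse-specific Klk1b genes. Klk13 was the exception. Its brightest probe had deposited intensities of 43.8, 24.7, 12.7 and 23.8 and was detected on 3 arrays, all but no DAPT on day 7. It differed with DAPT by 0.04 on day 4 and by at least 0.22 on day 7. The array's probes for the Klk1b genes may not separate these close relatives.

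Of 10 activating proteases and receptors on the array 5 were tested, with medians of -0.11 on day 4 and 0.13 on day 7 for DAPT. St14, the membrane protease matriptase, which activates kallikrein precursors in mouse epidermis, stood at -1.78 with DAPT on day 4 and at 0.58 on day 7, with its other probe at -0.67 and -0.05. It stood at -2.73 on day 7 against day 4 without DAPT, with its other probe at -1.27. With DAPT the same 2 values were -0.36 and -0.65. Prss8, the membrane protease prostasin, stood at -0.11 and 0.63 with DAPT, and its other probe at 0.67 and 0.29. Tmprss11a, a transmembrane serine protease, stood at -1.10 on day 7 against day 4 without DAPT and at -1.25 with DAPT. F2r, a thrombin receptor, was higher on day 7 by 1.20 without DAPT and by 0.69 with DAPT.

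Of 13 serine protease inhibitors on the array 7 were tested, with medians of 0.09 on day 4 and 0.30 on day 7 for DAPT. Spint2, a Kunitz-type inhibitor of membrane serine proteases, stood at -0.59 with DAPT on day 4 and on day 7, where the untreated array did not detect it, at least 1.72-fold above that array. On day 7 against day 4 Spint2 was at least 3.45-fold lower without DAPT and stood at -0.41 with DAPT. Spink2, a relative of Spink5, stood at 1.18 with DAPT on day 4 and at -0.52 on day 7. Serping1, the inhibitor of complement C1 and plasma kallikrein, stood at -0.02 and 0.94 with DAPT, and was higher on day 7 by 1.56 without and 2.52 with DAPT.

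In the list of corneodesmosome proteins and possible other substrates, 2 of 8 genes on the array were tested. They were Cdsn and the cytokine gene Il18, the latter at -0.12 and 0.02 with DAPT. Whether kallikreins cut the product of Il18 was not tested. Cdsn, which encodes corneodesmosin, stood at 1.64 with DAPT on day 4 and at 0.48 on day 7, with its other probe at 1.33 and 0.95. Cdsn thus lay above 0 with DAPT on both days, as did Klk7, the gene of the protease that cleaves it. Of all genes tested, 54.5% lay above 0 on day 4 and 44.1% on day 7. A link between Cdsn and Klk7 was not tested. The desmosomal cadherin genes Dsg1a, Dsg1b, Dsg1c and Dsc1 were detected on no array. Of 10 other genes for proteases of the outer epidermis or their inhibitors, 9 were tested, with medians of -0.06 and -0.22 for DAPT. Asprv1, the aspartic protease that processes filaggrin, stood at 1.86 and 0.99, Casp14, a caspase of cornifying cells, at 1.05 and -0.40, and Blmh, bleomycin hydrolase, at -1.14 and 0.39. Blmh was 8.36-fold lower on day 7 than on day 4 without DAPT and 2.9-fold lower with DAPT.

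The granular layer list, of which 7 of 9 genes on the array were tested, had medians of 1.62 on day 4 and 0.48 on day 7 for DAPT. On these days 5 and 2 genes were at least 2-fold higher and 1 and 0 lower. Of all genes tested, 3.68% and 1.60% were that much higher and 3.55% and 0.422% lower. Cdsn, Asprv1 and Casp14, given above under other lists, also belong to this list, so the lists are not separate evidence. Rptn, which encodes repetin, stood at 2.66 and 1.48 and Cnfn, which encodes cornifelin, at 1.62 and 1.61, whereas Ivl, which encodes involucrin, stood at -1.89 and -0.76. The summed normalized intensity of this list was 4234 in untreated and 5199 in DAPT cells on day 4, and 2906 and 4659.6 on day 7. That of the detected kallikreins was 9184, 7927, 5359 and 9155 in the same order, and Klk8 makes up most of it. The 8 detected keratinocyte markers summed to 29751, 33537, 16433 and 19706, and their median stood at 0.38 and 0.27 with DAPT and at -0.77 on day 7 without and -0.70 with DAPT. Single markers ranged from -0.37 to 1.04 with DAPT on day 4 and from -0.37 to 1.70 on day 7. Between the days they ranged from -2.92 to 0.76 without DAPT and from -2.23 to -0.36 with DAPT. Krt5 gave the values 1.70, -2.92 and -2.23.

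Markers of other cells also moved with day and treatment, and their part in the kallikrein values was not tested. All 7 fibroblast markers were detected on every array, summing to 13829 and 14258 on day 4 and to 26401 and 27260.2 on day 7, without and with DAPT. Of 6 melanocyte markers on the array 5 were detected on at least 1 array and only 2 on all 4, and Tyr was not detected. The sums over these 5 were 554 and 549.8 on day 4 and 857 and 246 on day 7. They include values from arrays that did not detect a marker. Of 5 immune markers only Cd3e was detected, at sums between 43.8 and 72.4, and Ptprc, Cd74, Itgam and Cd207 were not above background. Of 4 endothelial markers 2 were detected on at least 1 array and 1 on all 4, with sums between 353 and 548, and Cdh5 and Kdr were not detected. The 3 simple epithelial markers summed to between 11724 and 12543. Their differences with DAPT ranged from -1.50, for Krt19, to 0.12 on day 4 and from -0.18 to 0.24 on day 7.

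The genes whose centred log2 profile over the 4 arrays lay nearest to each kallikrein, among 8256 detected on all arrays, differed from member to member. Nearest to Klk7 were Calm4, Ltf, Tgfbr3, Rptn and Lce3b, at Euclidean distances of 0.52 to 0.67. Nearest to Klk6 were Oas1g, Ebp, Agrn, Irf9 and Sema3f, at 0.20 to 0.32, and nearest to Klk8 were Adi1, Plin2, Stip1, Eif5a and Bloc1s3, at 0.04 to 0.08. Klk10 had Hnrnpa1, Incenp, Sbsn, Nasp and Cdt1 at 0.11 to 0.23. Klk11, read by its brighter probe alone, had Rgma, Vegfd, Rsad2, Gsdmd and Selenop at 0.07 to 0.18. The dimmer Klk11 probe, whose profile differed, was not compared. Among the members themselves, with Klk11 again read by its brighter probe, Klk8 and Klk10 were closest, at 0.46, and Klk7 and Klk10 farthest apart, at 2.56. With 4 arrays many genes share a profile, so this describes likeness and is not a test.

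**Figure D3:**
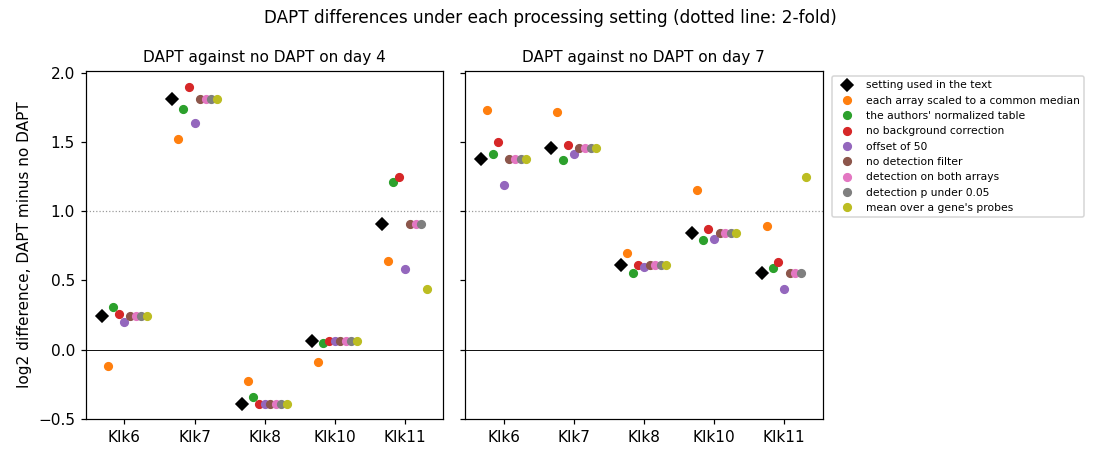
Log2 difference with DAPT (vertical axis) of the 5 detected kallikreins (horizontal axis) on day 4 and day 7, with black diamonds for the setting used in the text, coloured circles for 8 processing alternatives and a dotted line at 2-fold. Klk7 stays between 1.52 and 1.90 on day 4 and between 1.37 and 1.72 on day 7, and Klk11 moves most, up to 1.25 on each day. Alternatives that change only the detection filter could not move any of these values, and averaging probes could move only Klk11.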

How the data were processed

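Per the file headers, the authors deposited a table of non-normalized intensity per probe with a detection p-value beside each, and a table of their own normalized intensity, also linear. The scanner software, per the submitters' processing notes, was BeadStudio. Its version and the authors' normalization method are not given in the sources used here. The deposited values look background-subtracted: 5177 to 5847 probes per array lay below 0. Probes were named through the platform annotation, and 1719 of 25697 are unnamed here. In R 4.3.3, neqc of limma 3.58.1 estimated background from detection p-values, used an offset of 16, normalized by quantiles and took log2. The brightest probe by mean stood for a gene. Genes with a detection p under 0.01 on 1 or both arrays of a pair were tested, and where only 1 array detected it the difference is a lower bound. Genes were counted at 2-fold or more, with no p-value since each group holds 1 array. Only DAPT and day effects over all 4 arrays were tested, in an additive limma model, with Benjamini-Hochberg adjustment over 10359 genes, a threshold of 0.05 and 1 residual degree of freedom, which is the difference between the DAPT effects of the 2 days. These p-values rest on 1 SD shared by all genes, from the spread of 4 arrays alone. That spread mixes any real dependence of the DAPT effect on day with noise, and it is not a spread between replicates. The noise itself may be technical, as no label says that the cultures were separate. The model was also run on simulated data for the DAPT effect in 10359 genes. It recovered 20.9% of changes of 1 log2 unit, 98.5% of 2 and 100% of 3, under noise that met the model's own assumptions. In the same simulation 10 genes given no change were called. For the authors' table and for the setting with no background correction, values under 16 were set to 16. The number of arrays limits the precision of every value.

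The members and gene lists were chosen with earlier results of these data known. Named genes are every member probe, up to 6 genes per related list at least 2-fold apart in any comparison, and the 5 nearest profiles of each detected member; Prss8, and markers and genes named as not detected, were added after their values were seen. Tables were handled in pandas 2.3.3 and numpy 2.4.6 under Python 3.11.15, and matplotlib 3.10.9 drew the figures.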

Additional observations from a re-analysis of the deposited data

Results flagged for a closer look

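Some differences had opposite directions in the pairs of arrays compared, each with 1 array per group, and these contrasts between days or treatments were not tested. Klk8 stood at -0.39 with DAPT on day 4 and at 0.61 on day 7, and at -0.94 on day 7 against day 4 without DAPT and 0.05 with DAPT. The 2 values nearest 0, -0.39 and 0.05, lay within the SD between probes of 0.47 and 0.26. Klk6 stood at -0.25 on day 7 against day 4 without DAPT, within the SD of 0.56, and at 0.90 with DAPT. The dimmer Klk11 probe stood at -0.03 with DAPT on day 4 and 1.95 on day 7, and at -0.13 between the days without DAPT and 1.86 with DAPT. The values of -0.03 and -0.13 compare arrays on which this dimmer probe was near background. The brighter Klk11 probe had the same direction in all 4 comparisons.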

How the results depend on the processing

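The directions of the 20 kallikrein differences held in all 8 alternatives, except Klk6 and Klk10 on day 4, which turned to -0.12 and -0.09 with common median scaling. Alternatives that change only the detection filter could not move any of the 20, and averaging probes could move only Klk11. The 717 genes at least 2-fold apart with DAPT on day 4 were 1156 with the authors' table, 1135 with no background correction and 363 with an offset of 50. The 196 on day 7 were 361 with median scaling, 498, 491 and 75 in that order, the 1362 between the days without DAPT were 785 with an offset of 50, and the 474 with DAPT were 859, 804 and 248. Kallikreins at least 2-fold higher with DAPT numbered 2 on day 4 with the authors' table or no background correction, against 1. For DAPT against no DAPT on day 7 the number was 3 with median scaling or the mean over probes, against 2. Between the days without DAPT there was 1 with median scaling, an offset of 50 or the mean over probes, against 2. With DAPT there were 3 with median scaling and 2 with the authors' table, no background correction or the mean over probes, against 1. The kallikrein median turned from 0.24 to -0.09 on day 4 and went from -0.25 to -0.76 between the days without DAPT with median scaling. It was 1.25 on day 7 with the mean over probes and 0.54 between the days with DAPT with no detection filter, which adds Klk5. In limma, the 12 genes called for DAPT (203 at an unadjusted p under 0.05) were 0 with median scaling, the mean over probes, day left out, no detection filter or no background correction, 2 with the authors' table, and 1 with an offset of 50 or every probe tested. The 190 called for day were 0 with no detection filter, median scaling or no background correction, 82 with an offset of 50, 40 with the mean over probes, 106 with every probe and 1 with DAPT left out. Leaving out 1 array and the other factor gave 0 for DAPT and 1 to 263 for day, with 111 without the untreated and 117 without the DAPT array of day 7. The cause was not tested. No paired analysis was possible because each group holds 1 array with no replicate number in its labels; the model with both terms already compares DAPT within each day.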

Other observations

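On the deposited scale, before normalization, Klk6, Klk8, Klk10 and the dimmer Klk11 probe were dimmer with DAPT on day 4, with ratios of DAPT to no DAPT of 0.68, 0.65, 0.715 and 0.574, while Klk7 and the brighter Klk11 probe stood at 2.26 and 1.25. On day 7 the same ratios were 4.47, 1.9, 2.66, 10.6, 3.94 and 2.47. In the authors' deposited table of normalized intensity the ratios on day 4 were 1.24 for Klk6, 0.789 for Klk8, 1.04 for Klk10, 3.35 for Klk7 and 1.21 and 2.32 for the dimmer and brighter Klk11 probes, and on day 7 they were 2.66, 1.47, 1.73, 2.59, 4.15 and 1.51.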
